A study of Mus musculus with 2 samples.

Results

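Erythroid genes and globins were read on 2 arrays of E12.5 mouse gonads dissected together with the mesonephros, the transient kidney beside them. The list held 35 genes: embryonic and adult globins, red cell regulators, membrane proteins, blood group proteins, iron carriers and enzymes of heme synthesis. Of these, 33 had a probe set, whereas Epb41 and Ahsp were not analysed here. The whole array represented 18192 genes. One array carried RNA of XX wild-type embryos, whose strain is not given in the sources used here, and the other RNA of XX embryos homozygous for the Gata4ki allele, labelled C57Bl/6. The Gata4ki allele was knocked in to impair the contact of the zinc finger factor GATA4 with its FOG cofactors. The labels give RNA isolated from 6 pairs of complexes for each array, while the series' design text counts 6 control and 6 mutant samples, and neither says outright that the pairs were pooled. Each group analysed here had 1 array, so there is no replicate error and a difference describes these arrays only.

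Red cells carry oxygen on hemoglobin, a tetramer of alpha-like and beta-like globin chains that each hold a heme. The first red cells of the mouse embryo arise in the yolk sac and make embryonic globins from Hba-x, Hbb-y and Hbb-bh1. The fetal liver later releases red cells that make adult globins from the Hba-a and Hbb-b genes. KLF1, GATA1 and NFE2 drive the red cell genes, and mature red cells rest on a membrane skeleton anchored to the anion exchanger encoded by Slc4a1. Gonad and mesonephros make no red cells of their own in the textbook account, and both contain blood vessels.

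The members were chosen because erythroid signals were higher on the mutant array while embryonic globins were close, so their ratios are given as a description with no test. A floor was set at the median signal over both arrays, 24.0, and signals beneath it were raised to it. A gene counted as measured if either array exceeded the floor, and was read on its brightest probe set. Log2 ratios are mutant minus wild type. Some probe sets match several globin genes. Hba-a1 and Hba-a2 were therefore read as 1 adult alpha globin readout and Hbb-b1, Hbb-b2, Hbb-bs and Hbb-bt as 1 adult beta globin readout, which leaves 29 readouts on 63 probe sets. Of these readouts 28 were measured, and 26 exceeded the floor on both arrays.

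Sequence just upstream of 6 members is shown first, because these genes span both ends of the comparison. Hbb-bs and Hbb-bt are the adult beta globin genes of the reference strain and Hbb-y is the embryonic one whose signals were close. Klf1, Hemgn and Alas2 were among the members that reached 2-fold. Each line gives the 250 bases before the annotated start from RefSeq (GRCm38.p6), 5′ to 3′ on the gene's strand. Capitals mark GATAA, the core bound by GATA factors, and CCNCNCCC, the kind of site bound by KLF factors, each on either strand.
Hbb-bs, chr7:103827929-103828178, minus strand: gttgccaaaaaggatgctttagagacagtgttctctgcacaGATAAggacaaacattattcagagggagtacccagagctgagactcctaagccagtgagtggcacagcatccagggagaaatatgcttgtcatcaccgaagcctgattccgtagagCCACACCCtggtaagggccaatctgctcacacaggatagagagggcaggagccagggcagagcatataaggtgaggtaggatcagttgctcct
Hbb-bt, chr7:103813924-103814173, minus strand: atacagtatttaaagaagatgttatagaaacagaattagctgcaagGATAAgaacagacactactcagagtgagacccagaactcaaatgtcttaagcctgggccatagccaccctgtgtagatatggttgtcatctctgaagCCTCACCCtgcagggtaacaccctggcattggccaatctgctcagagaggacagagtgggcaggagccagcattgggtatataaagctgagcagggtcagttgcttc
Hbb-y, chr7:103853208-103853457, minus strand: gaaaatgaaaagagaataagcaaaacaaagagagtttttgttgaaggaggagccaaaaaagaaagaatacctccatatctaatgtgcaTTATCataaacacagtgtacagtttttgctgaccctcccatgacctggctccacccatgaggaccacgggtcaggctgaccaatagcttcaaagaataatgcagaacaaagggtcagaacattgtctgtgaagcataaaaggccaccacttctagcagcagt
Klf1, chr8:84901732-84901981, plus strand: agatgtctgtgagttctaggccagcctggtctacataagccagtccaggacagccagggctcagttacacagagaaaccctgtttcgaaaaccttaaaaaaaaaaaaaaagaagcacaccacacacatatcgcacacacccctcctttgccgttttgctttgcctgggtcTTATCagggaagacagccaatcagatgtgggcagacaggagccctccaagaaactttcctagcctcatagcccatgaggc
Hemgn, chr4:46404184-46404433, minus strand: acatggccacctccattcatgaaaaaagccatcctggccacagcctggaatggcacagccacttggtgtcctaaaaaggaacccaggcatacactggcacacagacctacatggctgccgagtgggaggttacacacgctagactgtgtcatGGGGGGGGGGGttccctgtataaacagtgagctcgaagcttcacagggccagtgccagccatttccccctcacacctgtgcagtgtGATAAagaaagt
Alas2, chrX:150547167-150547416, plus strand: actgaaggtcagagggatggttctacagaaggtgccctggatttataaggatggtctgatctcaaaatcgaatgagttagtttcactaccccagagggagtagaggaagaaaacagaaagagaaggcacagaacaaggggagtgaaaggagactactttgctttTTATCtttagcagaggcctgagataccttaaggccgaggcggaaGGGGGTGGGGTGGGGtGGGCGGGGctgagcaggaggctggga

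Every one of these windows held 1 GATAA core. The adult genes Hbb-bs and Hbb-bt also held a CCNCNCCC match, at CCACACCC and CCTCACCC, while the window of Hbb-y held none. In the alpha globin windows, not printed here, the arrangement was the reverse. There the embryonic gene Hba-x held 1 match and the adult genes Hba-a1 and Hba-a2 held none. The run of G in Hemgn gave 4 overlapping matches, and the GC-rich stretch near the start of Alas2 gave another 4, some of them overlapping. Aligned end to end, the Hbb-bs and Hbb-bt windows shared 178 of 243 aligned bases, or 73.3%. Hbb-bs and Hbb-y shared 142 of 220, or 64.5%. The windows of Hba-a1 and Hba-a2 were identical at all 247 aligned bases. A match describes the letters only, and not whether a factor was bound.

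The table of promoters listed 26 of the 35 genes with 31 windows of 300 bases, from 250 before to 50 after a start. GATAA was present in 18 of these 31 windows (58.1%), against 25.4% of all 32851 promoter windows in the table. CCNCNCCC was present in 20 of 31 (64.5%), against 49.5% of all windows. The NFE2-type core TGAGTCA was present in 3 of 31, in Hbb-bs, Kel and Trim10, against 5.20% of all windows. Both GATAA and CCNCNCCC were held by 8 member windows (25.8%) and by 8.67% of all windows. Set beside the array values, GATAA was found for 5 of 5 readouts with a listed promoter that were at least 2-fold higher, for 5 of 5 between 1.2-fold and 2-fold higher, and for 5 of 12 within 1.2-fold. This split was drawn after the values were seen and has no test.

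Across the 28 measured readouts, the mutant signal was at least 2-fold higher for 6 and 2-fold lower for none. The 6 were the adult beta globins, Hemgn, Klf1, Slc4a1, Ermap and Alas2. Over all 12300 measured genes 0.854% were at least 2-fold higher and 0.537% at least 2-fold lower, and since the choice of members used this contrast, nothing is read from the difference. Another 7 readouts were between 1.2-fold and 2-fold higher, and 15 lay within 1.2-fold. Of all measured genes 14.2% were at least 1.2-fold higher. That share takes in genes at 2-fold, so it stands beside the 6 and the 7 readouts together. A log2 ratio above 0 was seen in 24 readouts, against 51.4% of all measured genes. Hemgn and Epb42 among the 24 exceeded the floor on the mutant array alone, which fixes their sign in advance. The median log2 ratio was 0.24, and that of all measured genes was 0.01. In a bulk sample, more red cells and more RNA per cell cannot be told apart.

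**Figure D1:**
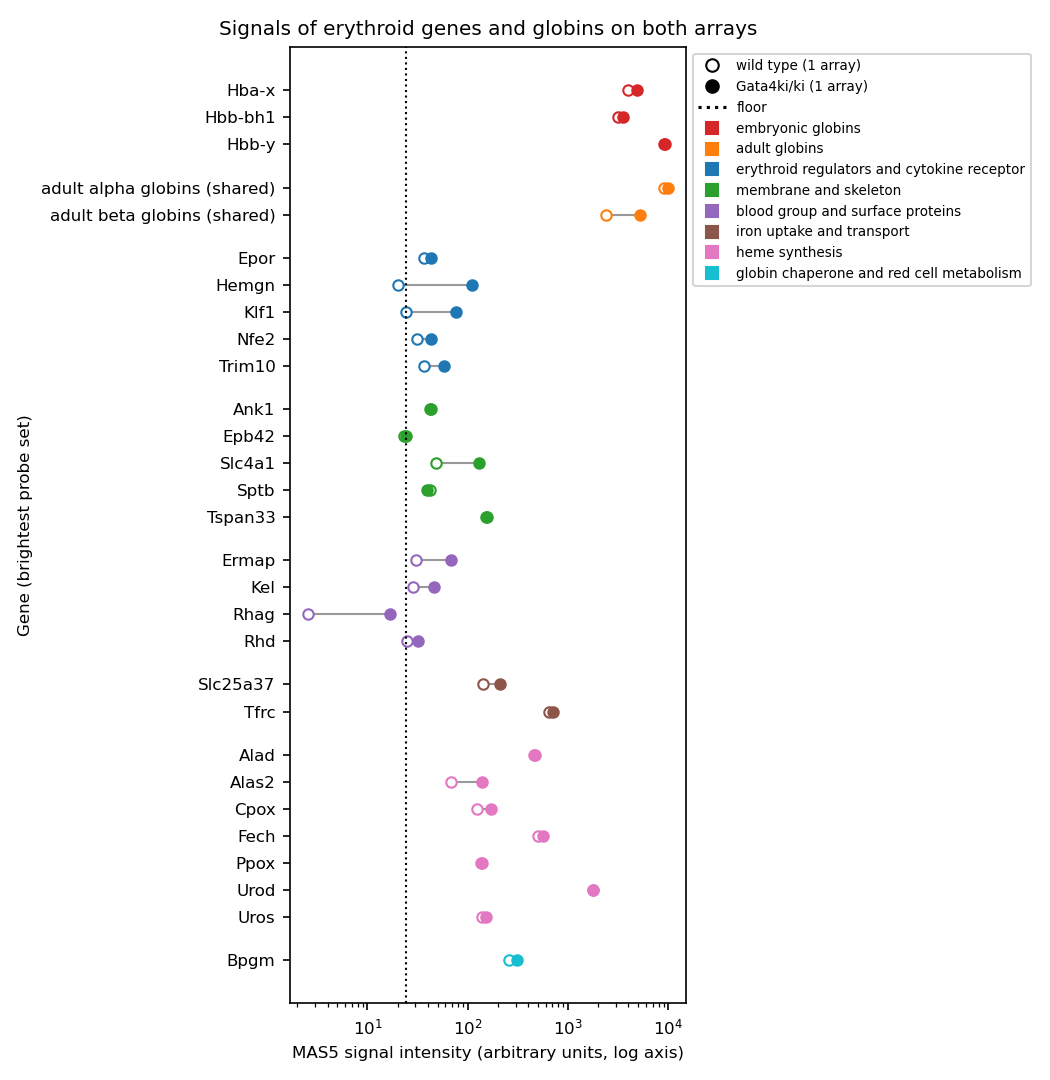
MAS5 signal intensity on a log axis for the brightest probe set of each of the 29 readouts, grouped and coloured by role. Open circles are the wild-type array, filled circles the Gata4ki/ki array and the dotted line the floor of 24.0. The widest measured gaps are those of Hemgn, Klf1, Slc4a1, Ermap, the adult beta globins and Alas2, while Hbb-y and most heme enzymes have overlapping circles.

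Among the globins, 2-fold was reached on 1 probe set, shared by the adult beta genes. The shared adult beta probe set gave signals of 2413 and 5272 (here and below wild type first, mutant second). The mutant signal was 2.18-fold higher, or 1.13 as log2 ratio. It was the only one of 982 probe sets with a mean signal of at least 2000 that was 2-fold apart in either direction. Ratios of the 814 probe sets with mean signals of 2000 to 7000 had a robust SD of 0.08 (log2), a spread across probe sets and not between embryos. Of the 3757 measured genes with a mean signal of at least 400, 2 (0.0532%) were at least 2-fold higher, the adult beta globins among them. Since the choice of members used this contrast, nothing is read from that share. The adult beta chain pairs with adult alpha chains in fetal liver-derived red cells. A pair of further probe sets annotated to Hbb-b2 alone read near the floor, at 22.6 and 27.2 on one and 18.5 and 27.7 on the other. Their bounds were at least 1.13-fold and at least 1.15-fold higher. The 2-fold difference of the adult beta globins thus rests on 1 probe set, which cannot tell the 4 genes apart. The Hbb genes on a mouse chromosome depend on its strain, Hbb-bs and Hbb-bt being those of C57BL/6.

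Adult alpha globins did not show a difference of this size on their brightest probe sets. The brightest shared probe set of Hba-a1 and Hba-a2 gave 9146 and 10001, a log2 ratio of 0.13. A second shared one gave 7477 and 8285, a log2 ratio of 0.15. The dimmest shared one gave 1102 and 1755, 1.59-fold higher, with a log2 ratio of 0.67. The shared probe sets pointed the same way but differed in size. A probe set annotated to Hba-a2 alone pointed the other way, with 69.0 and 52.5, a log2 ratio of -0.39, and one for Hba-a1 alone was under the floor on both arrays. Over the 168 probe sets with mean signals of at least 7000, the brightest alpha globin one among them, ratios had a robust SD of 0.05 (log2) and none was 2-fold apart.

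Embryonic globins differed by less than 1.5-fold on every probe set, and they did not all point the same way. Hba-x, the embryonic alpha-like chain, had signals of 3964 and 4840.2, 1.22-fold higher in the mutant. Hbb-bh1, an embryonic beta-like chain, read 3144 and 3564 where it was brightest, giving 0.18 as log2 ratio. Its other probe sets gave 2658 and 3569.9, a ratio of 0.43, and 2482 and 2799, a ratio of 0.17. All 3 probe sets of Hbb-bh1 were thus higher in the mutant. Hbb-y, the other embryonic beta-like chain, read 9198 and 8977 where it was brightest, giving -0.04 as log2 ratio. Its other probe sets gave ratios of -0.12 and 0.08, so its direction depends on the probe set. Hba-x and Hbb-bh1 lay at mean signals where the robust SD across probe sets was 0.08 (log2), and Hbb-y at signals where it was 0.05. Only 0.19% of the wild-type array's probe sets were brighter than the brightest one of Hbb-y, and the highest signal on that array was 14150.4. Whether ratios of the brightest globin probe sets are compressed was not tested.

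**Figure D2:**
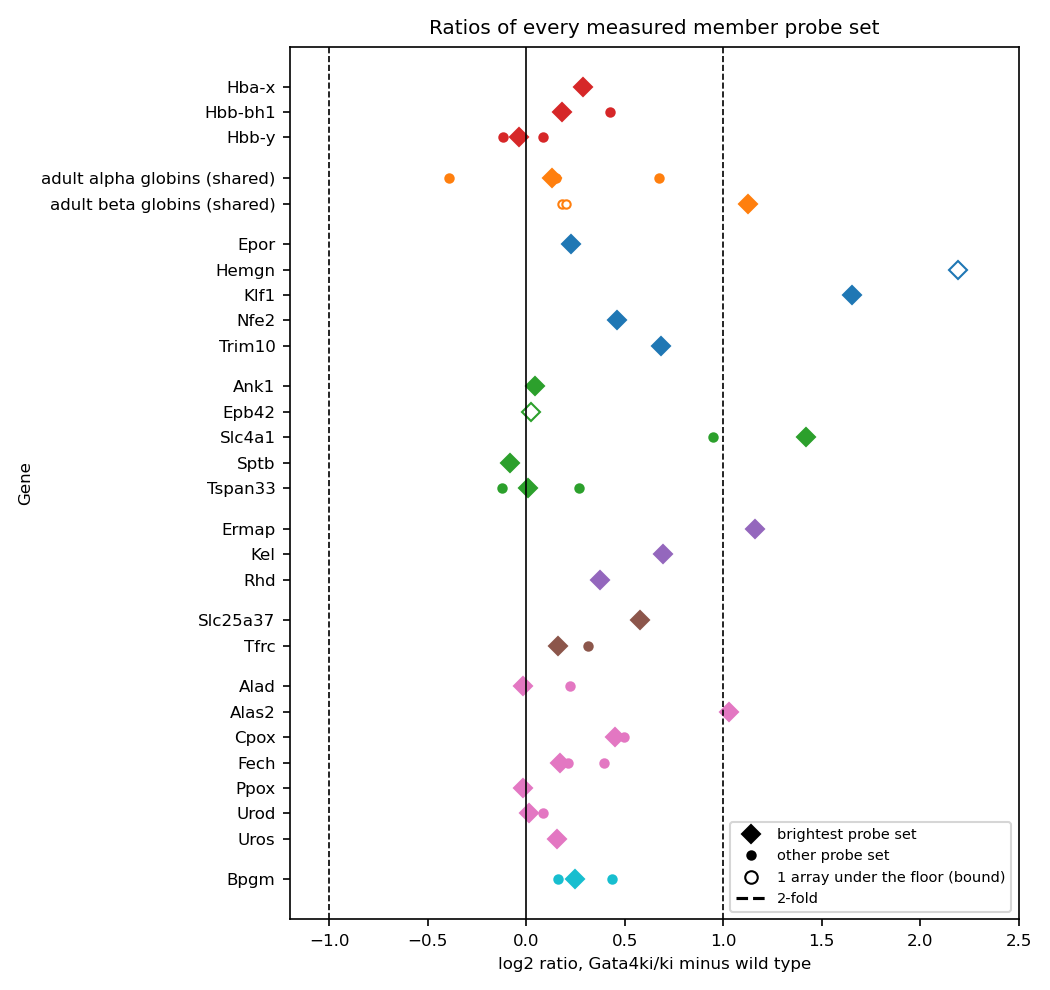
Log2 ratios of mutant over wild type for every measured probe set of the 28 measured readouts, in the same order and colours by role, from embryonic globins at the top to Bpgm at the bottom. Diamonds are the brightest probe set of a gene, circles the others, open symbols have 1 array under the floor and dashed lines mark 2-fold. Points of 1 gene come from the same RNA, and the adult beta globins show 1 point at 1.13 and bounds at 0.18 and 0.20.

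Regulators of red cell formation included the widest ratios. Hemgn, which encodes the nuclear protein hemogen of blood-forming cells, had signals of 20.2 and 109.8. It was at least 4.57-fold higher in the mutant, because its wild-type signal lay under the floor. That bound depends on the floor: its log2 value was 2.19, but 1.18 with the floor at the 60th percentile and 1.60 with a pseudocount, and Hemgn drops out where both arrays must exceed the floor. Klf1, the transcription factor of adult beta globin and of many other red cell genes, had signals of 24.5 and 77.1, 3.15-fold higher. Its wild-type signal lay just above the floor. When the floor was raised to the 60th percentile of signals, 48.5, the ratio of Klf1 became a bound of 0.67, under 2-fold, and with the pseudocount its log2 ratio was 1.06 in place of 1.66. Trim10, a RING finger protein needed for terminal red cell maturation, had 36.4 and 58.5, 1.61-fold higher. Nfe2, the erythroid subunit of a globin enhancer-binding factor, had 31.5 and 43.3, 1.37-fold higher. Epor, the erythropoietin receptor, had 37.0 and 43.3, 1.17-fold higher. All 5 genes of this group were thus brighter on the mutant array, 2 of them by at least 2-fold. All were dim, and 2.15% of measured genes with a mean signal under 100 were at least 2-fold higher.

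Among membrane and skeleton genes, only the anion exchanger reached 2-fold. Slc4a1, which encodes band 3, read 48.2 and 128.9 where it was brightest, 2.67-fold higher in the mutant. A second probe set gave 55.0 and 106.1, 0.95 as log2 ratio and just under 2-fold, and the remaining one was under the floor on both arrays. Both measured probe sets of Slc4a1 were thus higher in the mutant. Ank1, the ankyrin that ties band 3 to spectrin, had 41.7 and 42.9. Sptb, erythroid beta spectrin, had 41.7 and 39.3, the lowest log2 ratio of any measured member at -0.08. Another Sptb probe set read 10.7 and 23.7, under the floor on both arrays, so no ratio is given for it. Epb42, protein 4.2 of the same complex, had 22.9 and 24.4 and barely passed the floor. Ank1, Sptb and Epb42 thus lay within 1.2-fold, Epb42 as a bound. They did so at signals where log2 ratios across probe sets had a robust SD of 0.38. Tspan33, a tetraspanin of red cell precursors, had 153.4 and 154.0, and its other measured probe sets gave log2 ratios of 0.27 and -0.13.

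Blood group and surface proteins were dim, and all 3 measured ones were brighter in the mutant. Ermap, the Scianna blood group protein, had signals of 30.3 and 67.6, 2.23-fold higher. With the pseudocount in place of the floor its log2 ratio was 0.75, and with the higher floor it was a bound of 0.48, both under 2-fold. Kel, the Kell blood group endopeptidase, had 28.5 and 46.1, 1.62-fold higher. Rhd, the Rhesus blood group protein, had 24.6 and 32.0, 1.30-fold higher. Rhag, its partner in the Rh complex, read 2.56 and 16.9, under the floor on both arrays, so no ratio is given. Only Ermap of this group reached 2-fold, at the floor used here.

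Iron carriers differed less. Slc25a37, mitoferrin, the importer of iron into mitochondria of red cell precursors, had signals of 141.0 and 210.5, 1.49-fold higher in the mutant. Tfrc, the transferrin receptor present on most dividing cells, had 641.2 and 715.4, a log2 ratio of 0.16, and another measured probe set gave 0.32. The array's control probe set for the 3' end of the same transcript gave 40.2 and 32.4, a log2 ratio of -0.31, and took no part in the count.

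In heme synthesis only the erythroid first enzyme reached 2-fold. Alas2, the erythroid form of the rate-limiting enzyme, had signals of 68.6 and 140.1, 2.04-fold higher in the mutant. It fell short of 2-fold with the pseudocount, at a log2 ratio of 0.83. Cpox, coproporphyrinogen oxidase, had 124.3 and 169.8, 1.37-fold higher, and another measured probe set gave 0.50 as log2 ratio. Fech, ferrochelatase, which inserts the iron, had 504.2 and 568.0, a ratio of 0.17, and its other measured probe sets gave 0.21 and 0.39. Both genes were thus higher on every measured probe set, though well under 2-fold. Uros and Urod, which close and trim the porphyrin ring, had 137.8 and 153.7, and 1768 and 1782. Ppox, the enzyme before Fech, had 137.4 and 135.7, and Alad, the second enzyme, 466.9 and 461.3, where the dimmer Alad probe set gave a log2 ratio of 0.22. These 4 enzymes lay within 1.2-fold on all their measured probe sets. The housekeeping form of the first enzyme, Alas1, had 408.2 and 415.8, a log2 ratio of 0.03, and 0.45 on its other measured probe set. Bpgm, the red cell enzyme that makes the oxygen-affinity regulator bisphosphoglycerate, had 260.3 and 308.6, a log2 ratio of 0.25, with all 3 of its probe sets above 0.

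Probe sets of 1 gene read the same RNA and so show probe noise only. Several probe sets were measured for 12 readouts. In 8 of these all lay above 0, and 4 were mixed, namely Hbb-y, Tspan33, Alad and the adult alpha globins. The adult beta globins are among the 8, with Hbb-b2 probe sets that exceeded the floor on the mutant array alone. Among all genes so covered, 21.1% had every probe set above 0.

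**Figure D3:**
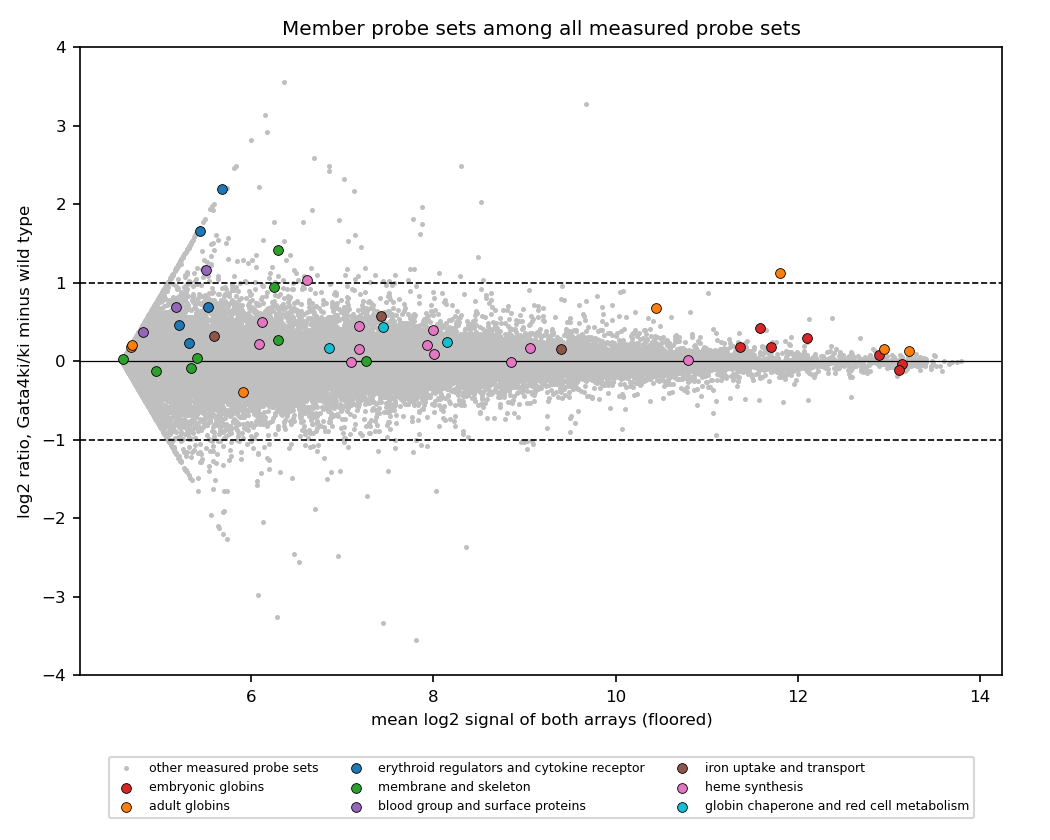
Log2 ratio of mutant over wild type against mean log2 signal for all measured probe sets (grey) and for the members (coloured by role), with dashed lines at 2-fold. The adult beta globin point at 1.13 lies apart from the narrow band of grey points at its signal, whereas Klf1, Hemgn and Ermap lie at dim signals where ratios scatter widely and the floor limits them.

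Other genes of the red cell pathway, in 5 lists of 92 genes, were examined next. Of 72 measured, 3 (4.17%) were at least 2-fold higher, against 0.854% of all measured genes, and none was 2-fold lower. The lists were chosen with earlier results of these data known, so nothing is read from the difference. The median log2 ratio of the 72 was 0.10. Zfpm1, which encodes FOG1, a member of the FOG family and a cofactor of GATA1, had signals of 98.6 and 203.3, 2.06-fold higher. Whether that signal came from red cells was not tested. Ikzf1, the lymphoid and erythroid factor Ikaros, had 22.9 and 58.1, at least 2.42-fold higher. It was dim, and 2.15% of measured genes with a mean signal under 100 were at least 2-fold higher. Car2, a red cell carbonic anhydrase that kidney and other tissues also express, had 261.0 and 535.7, 2.05-fold higher. The 18 erythroid transcription factors, all measured, had a median log2 ratio of 0.37, with 14 above 0. Gfi1b, Ikzf1, E2f2 and Mafk among the 14 exceeded the floor on the mutant array alone, which fixes their sign in advance. The 4 below 0 were Lmo2 at -0.28, Ldb1 at -0.23, Nfe2l2 at -0.09 and Lyl1 at -0.03. Tal1, the basic helix-loop-helix factor of blood formation, had 55.0 and 107.3, a log2 ratio of 0.96. Gata1 had 38.0 and 43.3, a ratio of 0.19. Bcl11a and Sox6, the repressors of embryonic globin genes, had 111.7 and 158.6, and 111.3 and 157.3, log2 ratios of 0.51 and 0.50, with all 3 probe sets of each above 0.

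The other pathway lists had medians closer to 0 and no further gene at 2-fold. Of 15 measured membrane and surface genes 11 had a ratio above 0, and the median was 0.09. Icam4 and Slc14a1 among the 11 exceeded the floor on the mutant array alone. In that list Slc14a1, the urea transporter of the Kidd blood group, had a bound of 0.70, with signals of 3.85 and 38.9, and Tmod1, a cap of actin filaments, had a ratio of 0.55. Heme and iron partners had a median of 0.03 over 16 genes. Blvrb, biliverdin reductase B, was at 0.47 and Slc11a2, an iron transporter, at 0.42, though one probe set of Slc11a2 gave -1.28. Red cell enzymes and maturation genes had a median of 0.15 over 12 genes. Apart from Car2, Nprl3, the gene whose introns hold the alpha globin enhancers, was at 0.29. Genes of the erythropoietin response had a median of 0.01 over 11 genes, with Stat5a at 0.51 and Cish, a feedback target of the receptor, at -0.34.

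Macrophage, platelet and granulocyte markers mostly had higher signals on the mutant array, where 51.4% of all measured genes were above 0. Of 12 macrophage genes 11 were above 0, none reached 2-fold, and their summed signals were 1728 and 2513. Csf1r and Adgre1 led that list, with log2 ratios of 0.77 and 0.72. Of 8 measured megakaryocyte and platelet genes 7 were above 0, with summed signals of 801.4 and 1249. Treml1 and F2rl2 among the 7 exceeded the floor on the mutant array alone, which fixes their sign in advance. Ppbp, a platelet chemokine, had 111.7 and 224.1, 2.01-fold higher, and Treml1 was at least 2.13-fold higher, at 5.78 and 51.3. Of 8 measured granulocyte genes 7 were above 0, with sums of 1969 and 2681. Prg2, an eosinophil granule protein, had 26.3 and 198.1, 7.53-fold higher, and Mpo, myeloperoxidase, was 3.40-fold higher. The list as a whole did not show this size: Epx, also of eosinophil granules, was at -0.02, Camp at 0.04 and Ltf at 0.14. Blood progenitor genes had 5 of 8 above 0, a share nearer to that of all genes, with sums of 2476 and 2702. In that list Ptprc was at 0.92 and Kit at 0.51, with -0.10 on the other Kit probe set. The part of these cell types in the erythroid values was not tested.

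Markers of vessels, liver, placenta and the dissected tissue gave mixed values. Of 12 endothelial genes 4 were above 0, with summed signals of 3150.4 and 2735, and Sox17 and Sox18 were at -0.66 and -0.57. Of the liver genes, Alb, Apoa1, Ttr, Fgb, Ahsg and Apob were under the floor on both arrays, and Afp had 412.3 and 297.4, a ratio of -0.47. The 3 measured liver genes summed to 484.8 and 406.3, but only Afp among them was lower. The other 2 were above 0, Hnf4a at 0.43 and Apoa2 as a bound of 0.33. Mast cell genes had 2 of 7 measured, Cpa3 at -0.63 and Hdc at 0.07, with sums of 282.5 and 279.5. Trophoblast genes had 4 of 6 measured, with 3 above 0, sums of 694.4 and 916.5, Plac1 at 0.57 and Rhox6 at 0.31. Hand1, the remaining one above 0, exceeded the floor on the mutant array alone. Ctsj, a placental cathepsin outside that list and chosen after its values were seen, read 1.29 and 282.6 and was at least 11.8-fold higher. The part of placental RNA in the erythroid values was not tested. All 11 measured gonad and mesonephros genes exceeded the floor on both arrays, as did 11463 of all 12300 measured genes. That count alone therefore does not bear out the labelled tissue. Wt1 was bright, at 1461 and 1475, whereas Osr1 was dim, at 32.5 and 31.2. The list summed to 6438 and 5799, with Calb1, a duct gene, at -0.72 and Nr5a1 at 0.34.

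**Figure D4:**
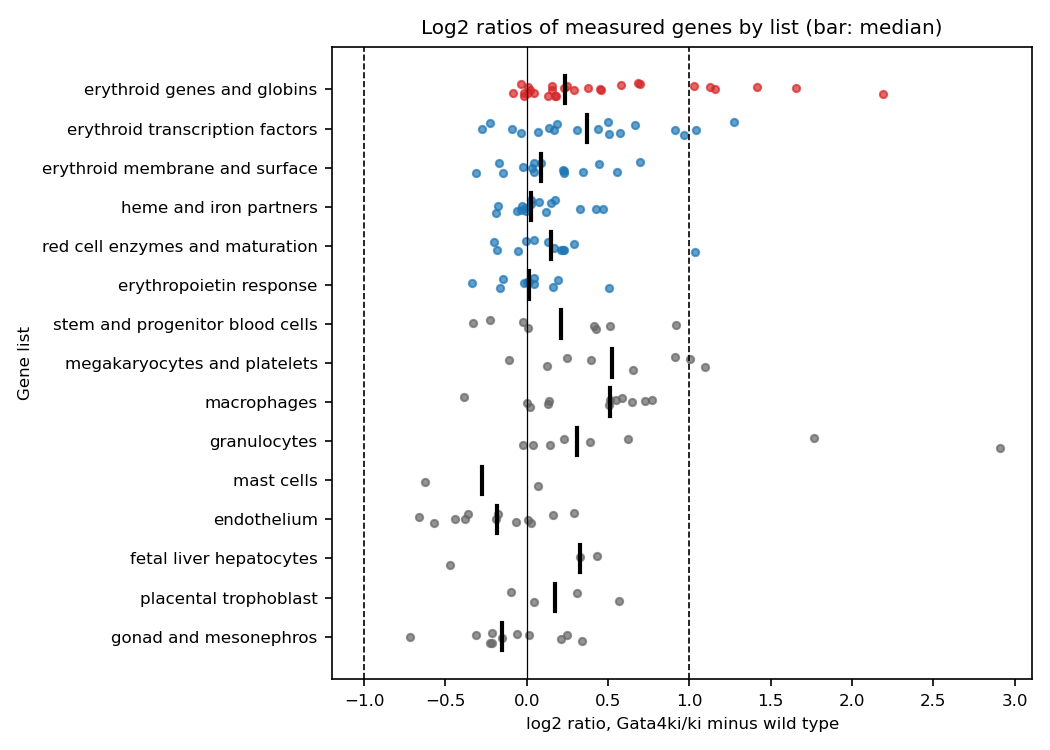
Log2 ratios of mutant over wild type for the measured genes of each list, 1 point per gene, with a black bar at the median and dashed lines at 2-fold. Red points are the erythroid genes and globins, blue the other red cell pathway lists and grey the markers of other cell types. Medians run from 0.52 for megakaryocyte and platelet genes and 0.51 for macrophages to -0.18 for endothelium and, over 2 genes only, -0.28 for mast cells.

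Both arrays had 45101 probe sets, of which 22566 in wild type and 22534 in the mutant exceeded the floor, with median signals of 24.1 and 24.0. Signal at the 3' end over that at the 5' end, a sign of RNA quality, was 2.16 and 2.47 for beta-actin and 0.90 and 1.10 for Gapdh. It was higher on the mutant array for both transcripts, and its part in the erythroid values was not tested.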

How the data were processed

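The authors deposited 1 linear signal intensity for each probe set and array, with MAS5 named in the submitters' processing notes. No version, detection call or filter is given in the sources used here. A trimmed mean was 150.0 on both arrays, so both carry 1 global scaling, which leaves ratios within an array as they were. MAS5 values are least precise at low signal, and the number of arrays limits the precision. Gene names came from the array platform's annotation table: 34945 non-control probe sets had 1 symbol, 932 had several and 9211 had none. Of the several-symbol probe sets, those of adult globins alone were kept; 64 control probe sets were left out.

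Values were used as deposited, floored at the 50th percentile (24.0) and compared as log2 with numpy 2.4.6 and pandas 2.3.3 in Python 3.11.15. With 1 array per group no test was run. The procedure was also run on simulated data. The planted changes there were larger than 2-fold and lay in genes well above the floor. That run therefore does not cover dim members such as Klf1, Hemgn, Slc4a1 and Ermap. The members, lists and settings were chosen with earlier results of these data known. Named were every member and, per list, genes at 2-fold or the 2 largest ratios. Tal1, Gata1, Lmo2, Ldb1, Nfe2l2, Lyl1, Bcl11a, Sox6, Alas1, Nprl3 and the low liver genes were added after their values were seen. So were Epx, Camp, Ltf, Wt1, Osr1 and list genes named for exceeding the floor on the mutant array alone. The 9 alternatives varied the floor, the probe sets and the scaling.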

Additional observations from a re-analysis of the deposited data

How the results depend on the processing

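No paired analysis was possible because each group had 1 array. None of the 9 alternatives gave a member at 2-fold lower or changed the sign of a member that was at 2-fold. The members' median log2 ratio stayed between 0.19 and 0.29. The count of 6 members at 2-fold ranged from 4 to 6 in 8 alternatives and was 3 without suffixed probe sets, where Slc4a1 gave 0.95, the adult beta globins a bound of 0.18, and Alas2 was not measured. The adult beta globins also fell short, at 0.20, with the median over probe sets and without multi-gene probe sets, and the adult alpha globins turned to -0.39 without suffixed and without multi-gene probe sets. Alad, near 0, changed sign in 2 alternatives. Genes at least 2-fold higher over the whole array numbered 105, against 211 and 42 with the floor at the 40th and 60th percentile, 65 with the pseudocount and 64 when both arrays had to exceed the floor. Genes at least 2-fold lower numbered 66, against 136, 33 and 41 in the first 3 of these. The cause of these shifts beyond the genes tested and the floor was not tested. Of 238 single-gene values 223 moved by less than the robust SD of ratios at their signal and 15 by more. Many of the 223 could not move, because some alternatives leave a gene with 1 single-gene probe set as it was. That SD is also wide for dim genes, so Alas2 counted among the 223 when the pseudocount took it under 2-fold.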
